A study of Homo sapiens with 6 samples.

Results

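The genes described here carry cystine into the cell and make, use and break down glutathione in RS4;11 cells, a human leukemia cell line of B-cell precursor origin that carries the KMT2A::AFF1 fusion gene. They were chosen by name as 10 genes of this pathway, SLC7A11, SLC3A2, CTH, GCLC, GCLM, GSS, GSR, GPX1, GPX4 and CHAC1, and all 10 are among the 11911 gene symbols of the deposited table. RNA was sequenced from 3 libraries of cells without asparagine and 3 libraries of cells with asparagine, and the series gives 16 hours after asparagine removal as the time of RNA extraction. The sample records enter one treatment for both groups, pelleted cells taken up in lymphocyte medium that lacks asparagine and holds dialyzed fetal bovine serum, so how the cells with asparagine were supplied with it is not stated. The table's columns use a short name for the depleted group that could stand for asparaginase. All libraries come from 1 cell line, and the labels do not say whether those of a group were separate cultures. The p-values below therefore reflect spread among libraries alone, which may be technical.

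Cysteine is the scarce building block of glutathione, the main small thiol of cells. The exchanger system xc-, made of the transporter xCT (SLC7A11) and the heavy chain CD98 (SLC3A2), imports cystine, the oxidized form of cysteine, in exchange for glutamate. Cysteine can also be made from methionine by transsulfuration, whose last step is catalysed by cystathionine gamma-lyase (CTH). Glutamate cysteine ligase, with a catalytic (GCLC) and a modifier subunit (GCLM), and glutathione synthetase (GSS) build glutathione. Glutathione peroxidases such as GPX1 and GPX4 oxidize it while they reduce peroxides, glutathione reductase (GSR) restores it with NADPH, and CHAC1 cleaves it inside the cell. SLC7A11 and CHAC1 are known targets of ATF4, which is translated when amino acids run short, and SLC7A11, GCLC, GCLM and GSR are known targets of NRF2, the factor of the antioxidant response.

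Promoter windows of RefSeq genes (GRCh38.p14), reaching from 250 bases before to 50 bases after an annotated start site, were searched on both strands for TGATGNAA, a form of the composite site bound by ATF4 with C/EBP factors, and for TGACNNNGC, the core of the antioxidant response element. Windows were matched for 7 of the 10 genes, CTH, GCLM, GPX1, GCLC, SLC3A2, CHAC1 and GPX4. The stretches upstream of the start site are shown for the genes with a match, with the matched letters in capitals.
CHAC1, chr15:40953221-40953470, plus strand: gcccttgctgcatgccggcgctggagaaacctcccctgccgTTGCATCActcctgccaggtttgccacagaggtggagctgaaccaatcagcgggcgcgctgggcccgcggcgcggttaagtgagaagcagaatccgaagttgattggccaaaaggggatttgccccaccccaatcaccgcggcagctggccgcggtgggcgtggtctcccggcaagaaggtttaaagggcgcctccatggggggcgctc
SLC3A2, chr11:62881449-62881698, plus strand: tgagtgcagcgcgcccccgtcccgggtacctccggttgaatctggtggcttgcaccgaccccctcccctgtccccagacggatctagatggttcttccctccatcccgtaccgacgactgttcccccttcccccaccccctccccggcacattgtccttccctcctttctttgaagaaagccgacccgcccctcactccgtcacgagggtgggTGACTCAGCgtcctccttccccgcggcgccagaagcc
GCLM, chr1:93909431-93909680, minus strand: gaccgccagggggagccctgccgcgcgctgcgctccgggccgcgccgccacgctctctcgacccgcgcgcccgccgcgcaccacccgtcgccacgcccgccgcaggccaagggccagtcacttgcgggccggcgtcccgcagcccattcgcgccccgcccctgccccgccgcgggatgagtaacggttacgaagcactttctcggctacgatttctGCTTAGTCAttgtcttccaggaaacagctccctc
In CHAC1 the capitals mark the composite form, read on the opposite strand, at position -209 counted from 0 at the start site. In SLC3A2 they mark the antioxidant form at position -37 of 1 of its 3 annotated start sites, and TTACATCA, the composite form on the opposite strand, begins at position 37 of the same window. In GCLM they mark the antioxidant form on the opposite strand at position -34. Neither string was found in the windows of CTH, GPX1, GCLC and GPX4. Of 35116 windows in the RefSeq table, 3.62% hold TGATGNAA and 13.3% hold TGACNNNGC, and a match is a description of letters and not of a bound site.

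The deposited values are normalized CPM, a scaled read number per gene, and how the libraries were scaled is not given in the sources used here. They corresponded to 29971364 to 40577308 reads in depleted libraries and 36611101 to 51127073 in libraries with asparagine. All 11 genes listed as B-cell precursor markers were in the table. They summed to 3237 to 4243 CPM in depleted libraries and 4123 to 4424 CPM with asparagine. DNTT was low, at 1.66 and 3.61 CPM on average. The list includes MEIS1 (194 and 142 CPM on average) and HOXA9 (42.3 and 55.8 CPM), so the sum is not of B-lineage genes alone. Single markers differed in opposite directions, with means of 120 CPM in depleted cells and 438 CPM with asparagine for VPREB1, 256 and 854 CPM for IGLL1 and 166 and 312 CPM for CD22, but 1333 and 1004 CPM for PAX5 and 362 and 267 CPM for EBF1. Among T and NK cell markers 1 of 8 was in the table (NKG7, 51.5 and 62.2 CPM on average), and the T-cell receptor genes CD3D, CD3E and CD3G were not. Of 7 myeloid markers 2 were in the table (CSF1R and ITGAM, together 17.5 to 31.0 CPM in depleted libraries and 32.1 to 33.3 CPM with asparagine), and of 6 erythroid and stromal markers 2 (COL1A1 and PDGFRB, 36.0 to 48.4 CPM and 65.7 to 76.4 CPM). The part of these markers in the results below was not tested. Depleted library 1 differed from the other depleted libraries along the GC content of the transcripts (r of log2 values 0.940 and 0.933 with libraries 2 and 3, against 0.996 between those). Its r with the libraries with asparagine was nearly as high, at 0.927 to 0.928, while that of depleted libraries 2 and 3 was 0.845 to 0.882. The difference between library 1 and the mean of libraries 2 and 3 had a Pearson correlation with GC content of 0.85 across 11344 genes, which share these libraries and are not replicates. The results below are therefore also given after a GC correction, in which the smooth trend with GC content was taken out of each library. The trend was measured against the mean of all libraries, so a difference between groups that follows GC content was taken out as well. Without depleted library 1 it still moved the log2 fold change (depleted minus with asparagine) of SLC7A11 from 4.85 to 3.70. That of CHAC1 moved from 3.12 to 3.96 and that of GCLC from 0.11 to -0.35.

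Among the 10 genes, the cystine exchanger subunit SLC7A11, its heavy chain SLC3A2 and the glutathione-cleaving CHAC1 rose in depleted cells, and GSS, GSR, GPX1 and GPX4 fell. CTH, GCLC and GCLM did not pass the test. The test was limma on log2(CPM + 1) over 11892 genes, with Benjamini-Hochberg adjusted p under 0.05 as the threshold, and 25.1% of all genes tested were called higher in depleted cells and 26.2% lower. Thus 7 of 10 genes were called, where 51.3% of all genes were. The same 7 had no overlap in CPM between the groups, 3 of them higher and 4 lower, as had 30.2% and 30.8% of all genes (61.1% together). The number lower was 2 without depleted library 2 or 3, and 1 without library 1 or 2 with asparagine. Fewer of all genes were called in these fits too, in either direction. They were 3877 and 4203 without depleted library 2 or 3, and 3601 and 3542 without library 1 or 2 with asparagine, against 6103 with all libraries. The median log2 fold change of the 10 genes was -0.063, beside 0.0098 over all genes tested. In the GC-corrected fit the same 3 genes were higher and 6 were lower, against 35.2% and 34.3% of all genes with a GC value (69.5% together). Without depleted library 1 the counts were 4 higher and 4 lower (40.5% and 41.3% of all genes, 81.8% together), and with the GC correction added 3 and 6 (39.5% and 38.7%, 78.2% together). With depleted library 1 as the only depleted library they were 3 and 4 (27.1% and 26.9%, 53.9% together). Log2 fold changes are given as depleted minus with asparagine. Because the libraries are scaled to each other, a change of total RNA per cell could not be seen, and in bulk samples fewer cells of a type and less RNA per cell cannot be told apart.

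**Figure D1:**
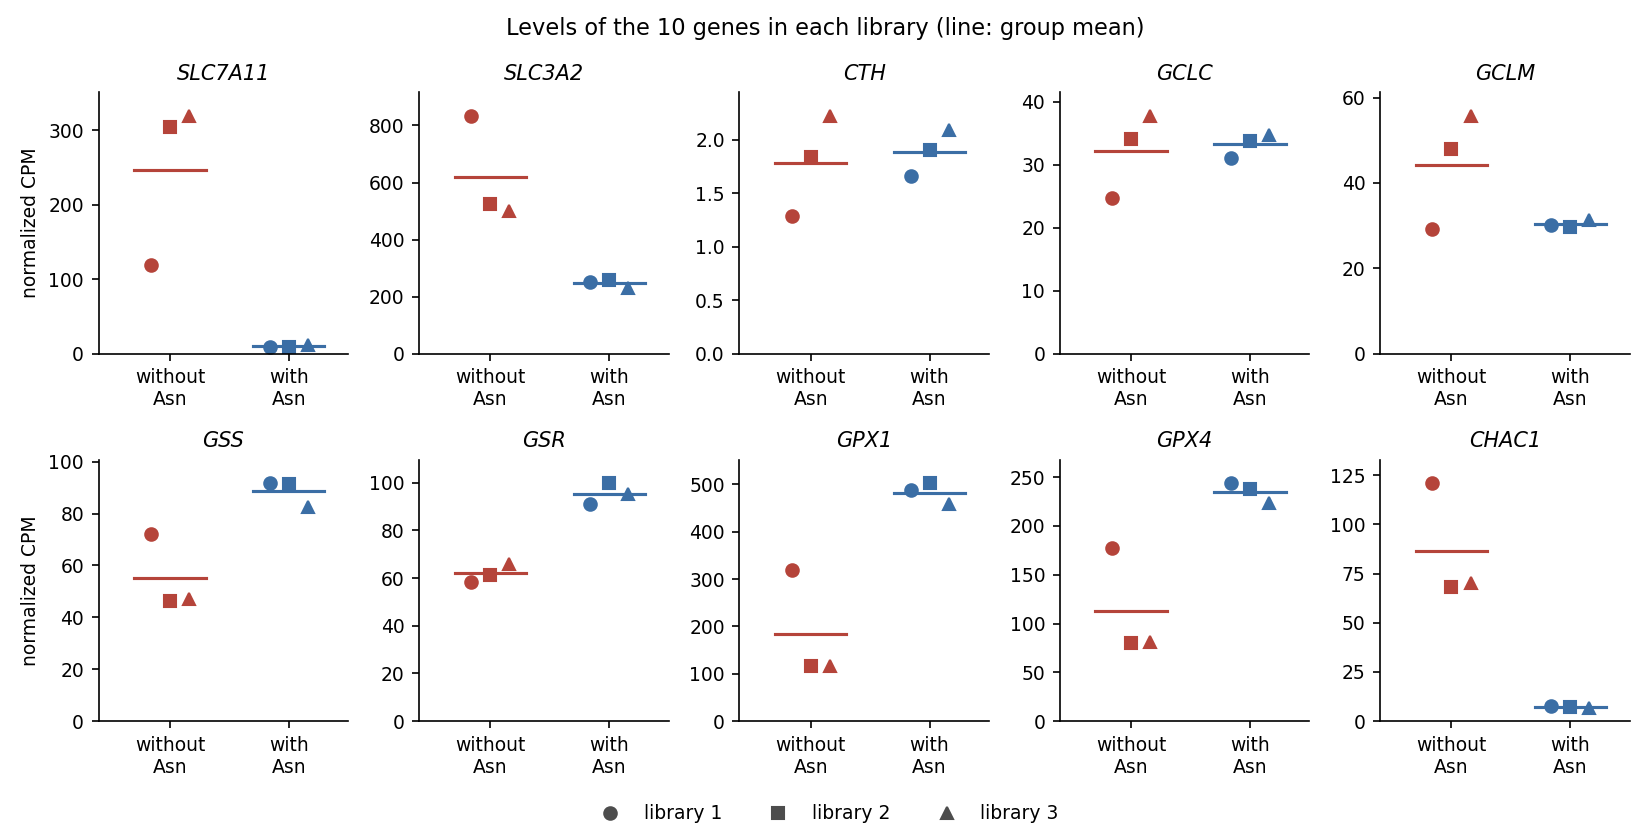
Normalized CPM of each of the 10 genes in the 3 libraries without asparagine (left, red) and the 3 with asparagine (right, blue), each on its own linear axis from 0, with marker shape giving the library number and a line at the group mean. SLC7A11 lies at 118 to 319 CPM in depleted libraries and 8.80 to 11.3 CPM with asparagine, and depleted library 1 lies away from the other two for most genes.

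SLC7A11 (chromosome 4, 138164097 to 138242349, minus strand, GRCh38 in GENCODE 29) had 118, 304 and 319 CPM in depleted libraries 1, 2 and 3, against 9.53, 8.80 and 11.3 CPM in libraries with asparagine. These rest on 5044, 9917 and 11915 reads, against 339, 319 and 568 reads. The groups did not overlap, and depleted library 1 lay well below the other depleted libraries. Its mean of 247 ± 112 CPM in depleted cells, against 9.88 ± 1.30 CPM with asparagine (SD, n = 3 each), gave a log2 fold change of 4.39, with SE 0.38 and adjusted p = 0.000395. After the GC correction the depleted libraries lay close together, 3.48, 3.69 and 3.71 above the mean with asparagine in log2 units, and the log2 fold change was 3.62 (SE 0.089, limma adjusted p = 3.32e-07). The gene is overlapped on the other strand by SLC7A11-AS1, which is not a row of the table, and no strand setting is stated, so reads of the pair cannot be told apart.

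SLC3A2 (chromosome 11, 62856102 to 62888875, plus strand), whose product also serves as heavy chain for several other amino acid exchangers, had 834, 526 and 500.2 CPM in depleted libraries, against 252, 259 and 231 CPM with asparagine. Each depleted library lay above each library with asparagine, with library 1 the highest, the opposite order to SLC7A11. The mean was 2.50-fold higher at 620 ± 186 CPM, against 247 ± 14.5 CPM, a log2 fold change of 1.28, with SE 0.21 and adjusted p = 0.00307. The corrected change was 1.72 (SE 0.054, limma adjusted p = 7.78e-07), with depleted libraries at 1.80, 1.70 and 1.66.

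The log2 ratio of SLC7A11 to SLC3A2 within a library, which library scaling moves only through the pseudocount, was -2.81, -0.79 and -0.65 in depleted libraries and -4.59, -4.73 and -4.24 with asparagine. The light chain thus gained on its heavy chain in each depleted library, by 3.11 on average. An exact permutation test (two-sided) gave p = 0.10, the smallest value that 3 against 3 libraries allow. With GC-corrected values the difference was 1.90 (exact p = 0.10), from ratios of -2.25, -1.93 and -1.88 in depleted libraries and -4.0, -3.82 and -3.95 with asparagine.

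CTH, the enzyme that releases cysteine from cystathionine (chromosome 1, 70411218 to 70439851, plus strand), had 1.29, 1.84 and 2.23 CPM in depleted libraries and 1.66, 1.90 and 2.09 CPM with asparagine. These values rest on 55, 60 and 83 reads and on 59, 69 and 105 reads. The groups overlapped, and the log2 fold change of -0.062 (95% interval from -0.45 to 0.33, limma adjusted p = 0.768) did not pass. After the GC correction CTH was lower, at -0.44 on the log2 scale (SE 0.12, limma adjusted p = 0.0118), and without depleted library 1 the uncorrected change was 0.072 (limma adjusted p = 0.653).

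GCLC, the catalytic subunit of glutamate cysteine ligase (chromosome 6, 53497341 to 53616970, minus strand), had 24.6, 34.1 and 37.8 CPM in depleted libraries and 31.1, 33.8 and 34.7 CPM with asparagine. The values of depleted cells reached both below and above those with asparagine, with library 1 the lowest. Its log2 fold change was -0.065 (95% interval from -0.49 to 0.36, limma adjusted p = 0.778), while in the GC-corrected fit it was lower, at -0.39 (SE 0.075, limma adjusted p = 0.00271), and without depleted library 1 it was 0.11 uncorrected (adjusted p = 0.295). With depleted library 1 as the only depleted library it was lower without the correction too, at -0.41 (adjusted p = 0.0239). In GENCODE 29 an antisense gene and a long noncoding gene overlap GCLC, neither of them a row of the table.

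GCLM, the modifier subunit that makes the ligase more active (chromosome 1, 93885205 to 93909456, minus strand), had 29.2, 48.0 and 55.7 CPM in depleted libraries and 30.2, 29.8 and 31.2 CPM with asparagine. Depleted library 1 lay just below the range with asparagine and libraries 2 and 3 above it. The log2 fold change was 0.48 (95% interval from -0.085 to 1.04, limma adjusted p = 0.13). It passed only without depleted library 1, at 0.75 (adjusted p = 3.23e-05), while the GC-corrected value was -0.057 (limma adjusted p = 0.563), with depleted libraries at -0.076, -0.13 and 0.036.

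The log2 ratio of GCLC to GCLM was -0.23, -0.48 and -0.55 in depleted libraries and 0.044, 0.18 and 0.15 with asparagine. The catalytic subunit was therefore lower relative to the modifier in each depleted library, with a difference of -0.54 on average (exact permutation test, two-sided p = 0.10, the smallest possible). With GC-corrected values the difference was -0.33, from -0.37, -0.26 and -0.31 in depleted libraries and -0.028, -0.034 and 0.11 with asparagine (exact p = 0.10).

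GSS, which adds glycine in the final step of glutathione synthesis (chromosome 20, 34928433 to 34956027, minus strand), had 72.1, 46.2 and 46.9 CPM in depleted libraries, against 91.6, 91.4 and 82.4 CPM with asparagine. The groups did not overlap, and depleted library 1 was nearest to the libraries with asparagine. Its mean was 1.61-fold lower in depleted cells, a log2 fold change of -0.70, with SE 0.19 and adjusted p = 0.0223. The GC-corrected change was smaller, at -0.39 (adjusted p = 0.00213). The uncorrected call was lost without depleted library 2 (adjusted p = 0.0813) or 3 (adjusted p = 0.0729) and without library 1 (adjusted p = 0.0834), 2 (adjusted p = 0.0826) or 3 (adjusted p = 0.0544) with asparagine. It was also lost with depleted library 1 as the only depleted library, at -0.29 (adjusted p = 0.0651).

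GSR, the NADPH-dependent reductase that regenerates glutathione (chromosome 8, 30678061 to 30727999, minus strand), had 58.4, 61.4 and 66.0 CPM in depleted libraries and 91.1, 99.8 and 95.3 CPM with asparagine. All depleted libraries lay well below all libraries with asparagine, and here library 1 did not stand apart. The mean was 1.54-fold lower at 61.9 ± 3.80 CPM, against 95.4 ± 4.36 CPM, a log2 fold change of -0.62 (SE 0.12), whose adjusted p was 0.00567. The corrected change was -0.39 (SE 0.12, limma adjusted p = 0.0246). After the correction depleted library 1 was the lowest, at -0.69, with libraries 2 and 3 at -0.31 and -0.19, and leaving it out of the corrected fit gave -0.25 (adjusted p = 0.00401).

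GPX1, the abundant cytosolic glutathione peroxidase (chromosome 3, 49357171 to 49358600, minus strand), had 319, 116 and 117 CPM in depleted libraries and 488, 502 and 458 CPM with asparagine. The groups were separate, but depleted libraries 2 and 3 had fallen much further than library 1. Its log2 fold change was -1.56 (SE 0.38, limma adjusted p = 0.0144), -2.04 without depleted library 1 (adjusted p = 6.72e-09) and -0.60 with depleted library 1 alone (adjusted p = 0.00113), where the lone library is assumed to vary like those with asparagine. After the GC correction it was -0.94 (SE 0.17, limma adjusted p = 0.00192), with depleted libraries at -0.51, -1.18 and -1.13. The call was lost without library 1 or 2 with asparagine (adjusted p = 0.0532 and 0.0531). GENCODE 29 classes GPX1 as a polymorphic pseudogene and lists the processed pseudogenes GPX1P1 and GPX1P2, so some reads of GPX1 are uncertain.

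GPX4, the peroxidase that reduces lipid peroxides in membranes and so restrains ferroptosis (chromosome 19, 1103926 to 1106791, plus strand), had 177, 79.9 and 81.5 CPM in depleted libraries and 244, 238 and 224 CPM with asparagine. Its pattern matched that of GPX1, with no overlap and library 1 between the other depleted libraries and those with asparagine. The mean was 2.08-fold lower, a log2 fold change of -1.16, with SE 0.30 and adjusted p = 0.0189. The corrected change was -0.53 (SE 0.094, limma adjusted p = 0.00186), with depleted libraries at -0.32, -0.66 and -0.60. Without depleted library 2 or 3, or library 1 or 2 with asparagine, the uncorrected call was lost (adjusted p = 0.0645, 0.0587, 0.0674 and 0.0642), and with depleted library 1 alone the change was -0.41 (adjusted p = 0.00999). GPX1 and GPX4 are both selenoproteins.

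CHAC1, a gamma-glutamyl cyclotransferase that cleaves glutathione in the cytosol (chromosome 15, 40952962 to 40956519, plus strand), had 121, 68.4 and 70.5 CPM in depleted libraries and 7.67, 7.28 and 6.46 CPM with asparagine. Each depleted library lay far above the other group, with library 1 the highest. The mean was 12.1-fold higher, and the uncorrected log2 fold change was 3.38 (SE 0.24, limma adjusted p = 0.000209). With the GC correction the depleted libraries came to 3.99, 3.92 and 4.0, a change of 3.97 (SE 0.066, limma adjusted p = 7.08e-08), which placed CHAC1 above SLC7A11 at 3.62, whereas uncorrected values placed SLC7A11 above CHAC1. The difference between the 2 genes was not tested.

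**Figure D2:**
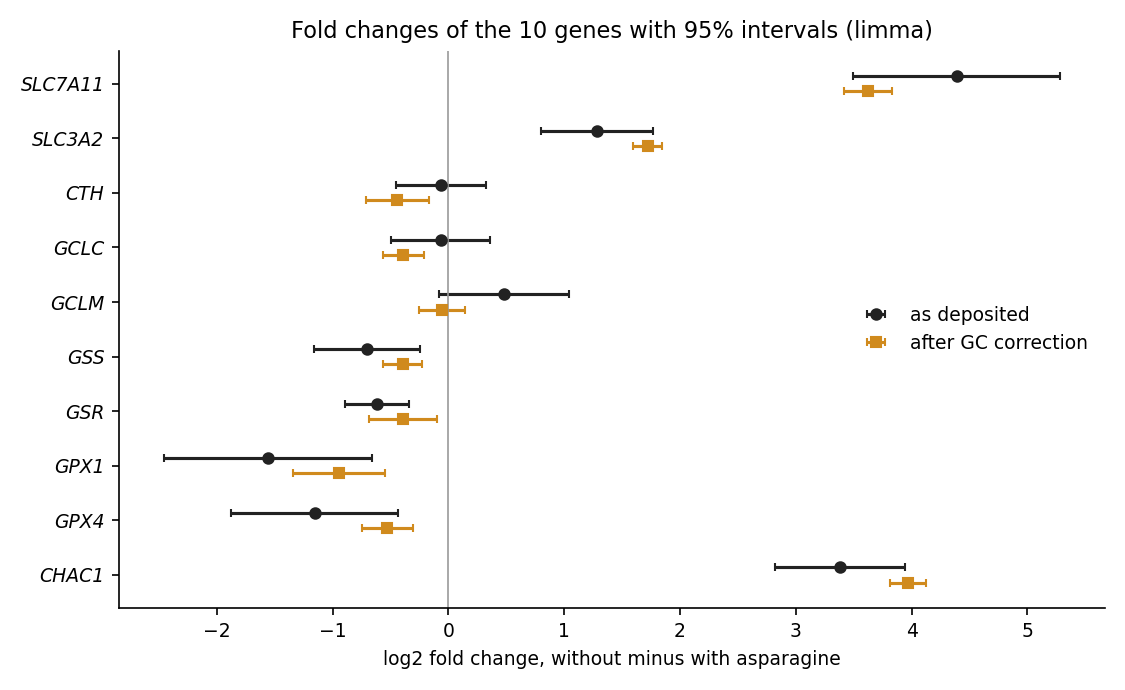
Log2 fold change of each gene, without minus with asparagine, with 95% intervals from limma (3 libraries a group), from values as deposited (black circles) and after the GC correction (orange squares). SLC7A11, SLC3A2 and CHAC1 lie right of 0 and GSS, GSR, GPX1 and GPX4 left of it in both, while GCLM is at 0.48 as deposited and at -0.057 after the correction.

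How far depleted library 1 lay from depleted libraries 2 and 3 followed the GC content of each gene's transcripts, which ran from 35.4% for SLC7A11, 40.1% for GCLM, 43.3% for CTH and 44.3% for GCLC to 62.6% for GPX1 and 62.9% for GPX4. Over the 10 genes, which share the same libraries, Pearson's r between GC content and the log2 difference of library 1 from the mean of libraries 2 and 3 was 0.97. The difference was -1.39 for SLC7A11, 0.79 for CHAC1, 1.12 for GPX4 and 1.44 for GPX1, and -0.12 for GSR. After the correction it was -0.22 for SLC7A11 and 0.032 for CHAC1, but 0.65 for GPX1 and -0.44 for GSR. The correction thus drew the depleted libraries together for SLC7A11 and CHAC1, and less so for GPX1, and for GSR it moved them apart. The part of GC content in the differences between groups was not tested.

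**Figure D3:**
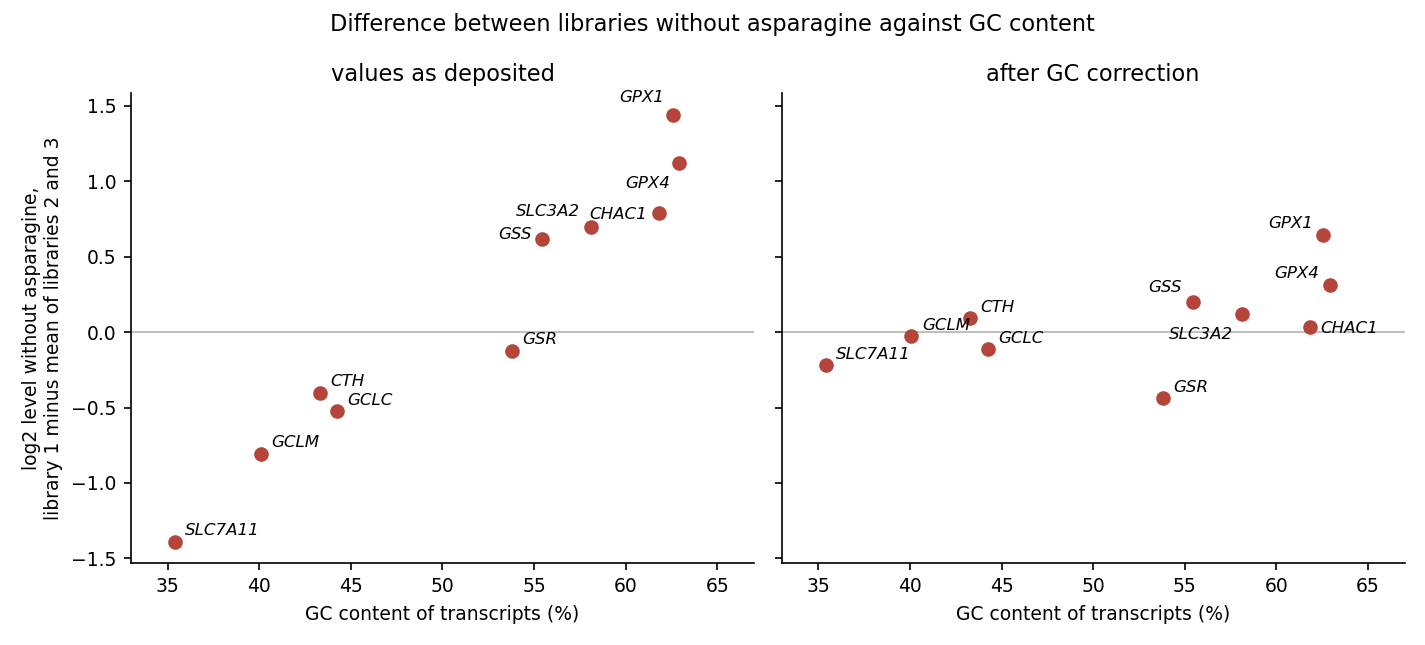
Log2 level in depleted library 1 minus the mean of depleted libraries 2 and 3 for each gene (vertical axis) against the median GC content of its transcripts in percent (horizontal axis), from values as deposited (left) and after the GC correction (right). The left panel climbs from -1.39 for SLC7A11 to 1.44 for GPX1, and in the right panel the genes lie between -0.44 and 0.65.

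Levels were divided by exon length to set genes side by side, with no correction for GC content. SLC3A2 had the highest mean level of the 10 genes in depleted cells at 234 ± 70.0 CPM per kilobase, followed by GPX1 at 129 ± 81.5 and GPX4 at 91.5 ± 45.1. The length used for GPX1, 1430 bases, is the whole span of the gene, so any intron is counted in it. In cells with asparagine the order was GPX1 at 338 ± 15.9, GPX4 at 191 ± 8.44 and SLC3A2 at 93.3 ± 5.47 CPM per kilobase (SD, n = 3 each). The ranges of SLC3A2 and GPX1 overlapped in depleted libraries (188 to 314 and 81.1 to 223 CPM per kilobase), as did those of GPX1 and GPX4. Within each depleted library, however, SLC3A2 stood above GPX1 and GPX1 above GPX4. Library 1 had 314, 223 and 144 CPM per kilobase for these genes, and library 2 had 198, 81.1 and 64.8. The order was not tested. CHAC1 and SLC7A11 ranked next in depleted cells, at 42.1 ± 14.5 and 25.6 ± 11.6 CPM per kilobase, against 3.47 ± 0.302 and 1.02 ± 0.135 with asparagine, where they stood below GSR, GSS, GCLM and GCLC. The gap between CHAC1 and SLC7A11 in depleted cells came mostly from library 1, at 58.8 against 12.3. Depleted libraries 2 and 3 had 33.2 and 34.2 for CHAC1, against 31.5 and 33.1 for SLC7A11. GSR and GSS had 19.4 ± 1.19 and 16.8 ± 4.50 CPM per kilobase in depleted cells, with ranges that overlapped each other and that of SLC7A11 (12.3 to 33.1), and 29.9 ± 1.37 and 27.0 ± 1.61 with asparagine. GCLM and GCLC stood at 9.04 ± 2.79 and 5.05 ± 1.06 in depleted cells and at 6.20 ± 0.154 and 5.21 ± 0.290 with asparagine. CTH was the lowest in both groups, at 0.834 ± 0.219 and 0.881 ± 0.102 CPM per kilobase, and with asparagine its range overlapped that of SLC7A11.

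**Figure D4:**
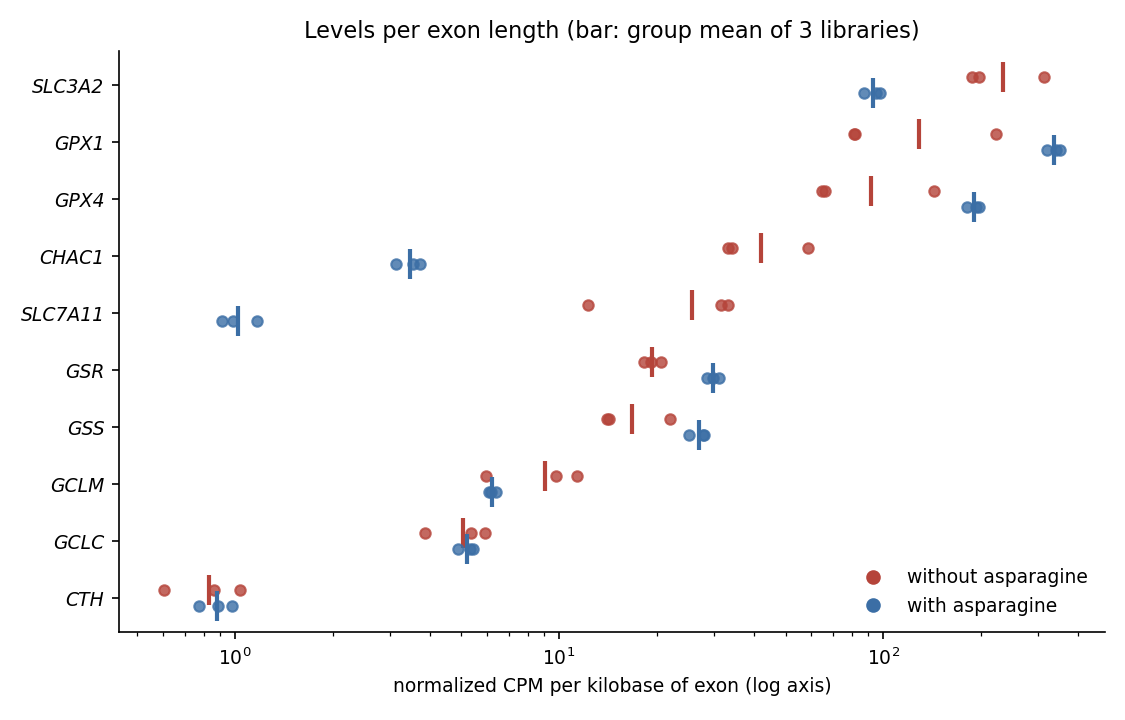
Normalized CPM per kilobase of exon (log axis) for each gene in the 3 libraries without asparagine (red, upper) and the 3 with asparagine (blue, lower), with a bar at the group mean, ordered by the level in depleted cells. SLC3A2 leads in depleted cells at a mean of 234, and GPX1 with asparagine at 338, while CTH is lowest in both groups.

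The patterns closest to SLC7A11 over the 6 libraries, by the root mean square difference of log2(CPM + 1) after setting each gene's mean with asparagine to 0, were those of TMTC1 (0.16), ESRP1 (0.32) and TM6SF1 (0.35). TM6SF1 had 99.8, 158 and 151 CPM in depleted libraries and 7.37, 5.51 and 8.57 CPM with asparagine. TMTC1 and ESRP1 reached 24.9 and 23.0 CPM in depleted cells and at most 0.0562 and 0 CPM with asparagine, where the added 1 CPM understates the change. Closest to CHAC1 were MATN4 (0.093), GDF15 (0.13) and TOX2 (0.14). GDF15 had 13.6, 6.68 and 6.73 CPM in depleted libraries and at most 0.0281 CPM with asparagine, and MATN4 had 19.1, 10.6 and 10.9 CPM, against 0.422, 0.221 and 0.120 CPM. Here too the likeness depends on the added 1 CPM. With 0.25 CPM added, log2 fold changes were 4.76 for MATN4, 5.04 for GDF15 and 4.21 for TOX2, against 3.51 for CHAC1. With 4 CPM added they were 2.01, 1.65 and 2.17, against 2.98 for CHAC1. MATN4, GDF15 and TOX2 share with CHAC1 a highest value in depleted library 1 and a GC content of 58.5% to 64.6%. They were picked for likeness to CHAC1 over these same libraries, so the shared peak follows from the choice. Library 1 differed along GC content over all genes, so the GC content is not a trait separate from that peak.

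Other genes of the pathway were grouped in lists written from textbook knowledge, and each count stands against the 25.1% of all genes called higher and 26.2% called lower, or, after the GC correction, against 35.2% and 34.3%. Among carriers of cystine, cysteine and glutathione, 3 of 12 tested were higher and 4 lower, with a median log2 fold change of -0.16, and 5 and 3 after the GC correction (median 0.20). The number higher was 1 without depleted library 2 or 3 and without any 1 library with asparagine, where SLC1A4 and SLC7A7 lost their calls. Over all genes, 1902 and 2054 were higher without depleted library 2 or 3, against 2987 with all libraries. Without library 1, 2 or 3 with asparagine 1756, 1728 and 2067 were higher, and without depleted library 1 4812. The mitochondrial carriers SLC25A39 and SLC25A40, known for glutathione import into mitochondria, went opposite ways. SLC25A40 was 3.73-fold higher at 136, 316 and 317 CPM in depleted libraries, against 68.7, 59.6 and 77.9 CPM with asparagine, a log2 fold change of 1.79 (adjusted p = 0.00547) and 0.97 after the correction (adjusted p = 1.10e-05). SLC25A39 was 2.96-fold lower at 110, 62.4 and 69.6 CPM, against 249, 253 and 213 CPM, a change of -1.59 (adjusted p = 0.00185) and -0.98 corrected (adjusted p = 1.36e-05). The export pumps ABCC1 and ABCC4 were lower, with log2 fold changes of -0.85 and -0.94 (-0.56 and -1.24 corrected).

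Of 7 genes of transsulfuration and the methionine cycle, 1 was higher and 2 lower (median -0.043), and 2 and 4 after the GC correction (median -0.38). Without depleted library 1 the number higher was 3. AHCY, which splits S-adenosylhomocysteine, was 3.63-fold lower at 99.9 ± 31.3 CPM in depleted cells, against 363 ± 15.0 CPM with asparagine, with a log2 fold change of -1.89 (-1.56 corrected). MAT2A, which makes S-adenosylmethionine, had a log2 fold change of -0.84 (-1.03 corrected). AHCYL1, an AHCY-like protein, was 2.76-fold higher, at 1.45 on the log2 scale (1.30 corrected). In cysteine catabolism and sulfide metabolism, 3 of 8 were higher and 3 lower (median -0.24), before and after the correction (median -0.022). GOT1, the cytosolic aspartate aminotransferase, was 5.11-fold higher at 331, 306 and 290 CPM, against 58.6, 62.5 and 60.4 CPM, a log2 fold change of 2.33 (2.49 corrected). SUOX (sulfite oxidase) and CSAD (of taurine synthesis) were the other higher genes, at 1.20 and 0.56 (1.45 and 0.89 corrected). The sulfurtransferases MPST and TST and the cysteine desulfurase NFS1 were lower, with log2 fold changes of -1.37, -1.52 and -1.22. After the correction they were still lower, at -0.64, -0.88 and -1.06.

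Enzymes that break down glutathione or recycle its parts, apart from CHAC1, were higher in 1 of 7 and lower in 4 (median -0.52), and in 3 and 3 after the correction (median 0.093). The number higher was 2 without depleted library 1 and 3 with it as the only depleted library. CHAC2, the CHAC1 relative, was lower at 6.83, 10.6 and 10.9 CPM in depleted libraries, against 17.3, 16.8 and 20.5 CPM with asparagine, a log2 fold change of -0.89 (adjusted p = 0.0106) and -1.59 corrected (adjusted p = 6.99e-05). GGCT, which releases 5-oxoproline from gamma-glutamyl amino acids, was 2.56-fold lower and the aminopeptidase LAP3 2.09-fold lower, with log2 fold changes of -1.29 and -1.05 (-1.64 and -1.15 corrected). The surface aminopeptidase ANPEP was higher, at 15.0, 10.4 and 7.64 CPM, against 2.05, 1.79 and 1.93 CPM, a log2 fold change of 1.99 (2.50 corrected).

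Among glutathione-using enzymes, 1 of 19 was higher and 10 were lower, with a median log2 fold change of -0.63, and 2 and 12 after the correction (median -0.60). GSTP1, a glutathione transferase that conjugates electrophiles, had 361, 182 and 179 CPM in depleted libraries and 752, 771 and 720 CPM with asparagine, a change of -1.71 (adjusted p = 0.00292) and -1.17 corrected. GSTO1, MGST3 and GLRX5, a mitochondrial glutaredoxin of iron-sulfur cluster assembly, were 2.63-fold, 2.55-fold and 2.07-fold lower, with log2 fold changes of -1.37, -1.32 and -1.07 (-1.30, -1.44 and -1.05 corrected). The higher gene was GSTM2, at 6.66 CPM on average in depleted cells and 4.49 CPM with asparagine (adjusted p = 0.0451). Its call was lost in the fit without depleted library 2, in each fit without a library with asparagine and with the replicate number as a block (adjusted p = 0.0663). GSTM genes are near-identical copies, so their reads are uncertain.

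Genes of the NRF2 pathway were higher in 4 of 22 and lower in 12, with a median of -0.59, and in 5 and 13 after the correction (median -0.47). NFE2L2, the gene of NRF2, was 2.56-fold higher in depleted cells, a log2 fold change of 1.32 (adjusted p = 0.00267) and 0.98 corrected. Its relative NFE2L1 was 3.59-fold higher at 789, 578 and 572 CPM, against 179, 183 and 177 CPM, a log2 fold change of 1.82 (2.13 corrected). KEAP1, the adaptor that directs NRF2 to degradation, was lower, at -1.22 (adjusted p = 0.00622), at -0.64 after the correction (adjusted p = 2.61e-05) and at -0.68 with depleted library 1 as the only depleted library (adjusted p = 0.00131). The repressor gene BACH1 and the heme transporter gene SLC48A1 were the other higher genes. The number higher was 2 without depleted library 2 and without any 1 of the libraries with asparagine. In these fits 1728 to 2067 of all genes were higher, against 2987 with all libraries. Of known targets, TKT and TALDO1, of the pentose phosphate pathway, were 5.13-fold and 2.87-fold lower, with log2 fold changes of -2.39 and -1.53 (-1.94 and -1.22 corrected). PRDX1, TXN and TXNRD1, of the peroxiredoxin and thioredoxin systems, had log2 fold changes of -1.49, -1.37 and -0.68 (-1.62, -1.95 and -0.85 corrected). NQO1, a standard NRF2 target, had a log2 fold change of -0.17 (adjusted p = 0.328) and -0.28 after the correction (adjusted p = 0.0436).

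In the list of ferroptosis control, which holds iron handling, lipid and selenoprotein synthesis genes, 7 of 20 were higher and 5 lower (median 0.15), and 9 and 8 after the correction (median -0.00016). TFRC, the transferrin receptor, was 5.97-fold lower at 42.0, 66.9 and 70.4 CPM in depleted libraries, against 336, 350.3 and 384 CPM with asparagine (log2 fold change -2.59, adjusted p = 0.000306, and -3.03 corrected). PEBP1 and DHODH were 2.69-fold and 2.59-fold lower, with log2 fold changes of -1.44 and -1.32 (-1.22 and -1.09 corrected). SEPSECS, which makes the selenocysteine tRNA that GPX1 and GPX4 need, was 2.40-fold higher at 32.2, 57.1 and 53.9 CPM, against 20.8, 17.9 and 21.0 CPM, a log2 fold change of 1.18 (adjusted p = 0.00652, and 1.01 corrected). Without any 1 library with asparagine, and without depleted library 2 or 3, the number higher in this list was 3. Of all genes 1728 to 2067 were higher in these fits, against 2987 with all libraries.

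**Figure D5:**
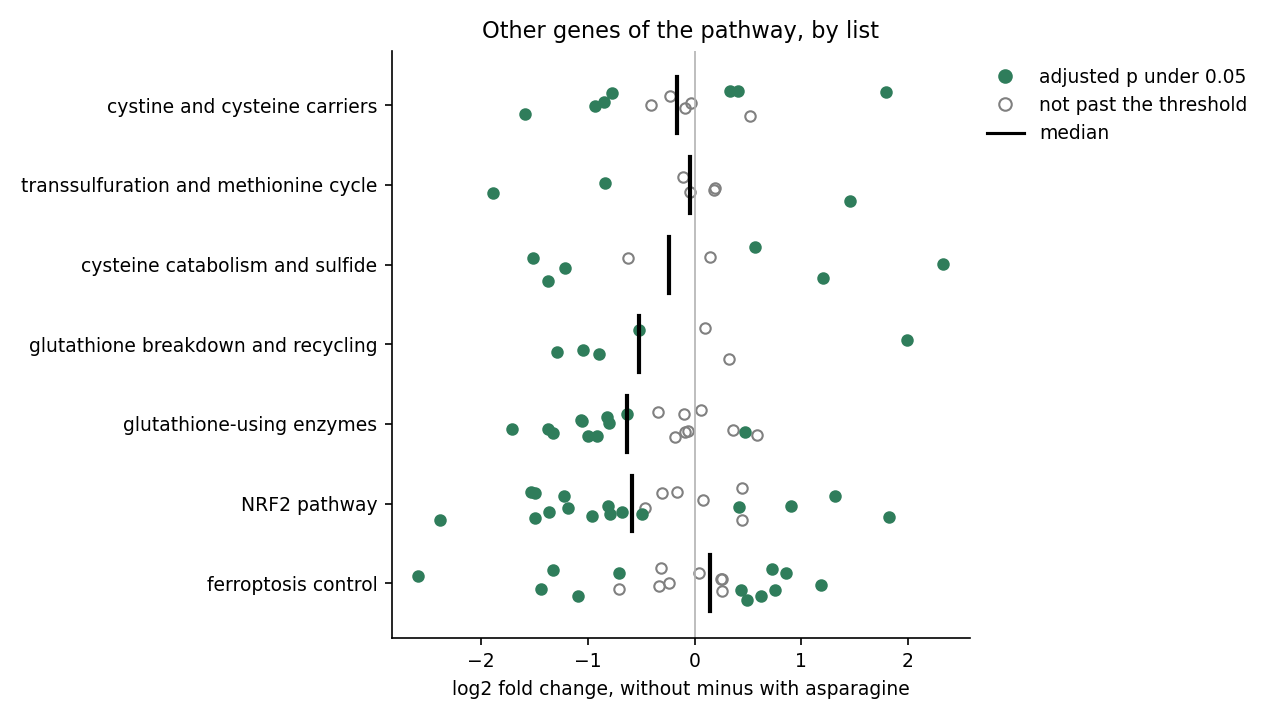
Log2 fold change, without minus with asparagine, of each tested gene in the 7 lists of related genes, from values as deposited, with filled points for genes past the threshold, open points for the rest and a bar at each list's median. Glutathione-using enzymes and NRF2 pathway genes have medians of -0.63 and -0.59, and both hold genes on either side of 0.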

How the data were processed

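RNA sequencing of RS4;11 cells was analysed in 6 libraries, grouped by the asparagine entry of their titles. The submitters' processing notes name STAR, featureCounts (Subread), FastQC and GRCh38. For versions, annotation, strand setting and scaling, the entry is "not given in the sources used here". The deposited values are a normalized CPM signal, matched to samples by the group and replicate number in the column names. Within each column all values were integer multiples of a smallest step (tolerance 1e-06), taken as 1 read, and 3 reads equal 0.0598 to 0.092 CPM. The main test used the deposited scale, and of all the fits only the added one with voom weights used these inferred reads.

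Values were analysed as log2(CPM + 1) in R 4.3.3 with limma 3.58.1 (intensity trend, group as only term) for genes with at least 1 CPM in 3 libraries (11892). The GC correction removed a lowess trend (span 0.3) in each library over 11344 genes. GC content is a median over coding transcripts, and lengths are exons of basic coding transcripts, both in GENCODE 29. Folds are ratios of mean CPM, given without asparagine over with asparagine, or inverted where called lower. The fit was tested on simulated data. The genes and lists were chosen with earlier results of these data known. From each list up to 4 called genes were named, those with the largest changes that averaged 5 CPM or more in the higher group. A gene named by this rule is not reported here. The others named (NFE2L2, KEAP1, BACH1, SLC48A1, SUOX, CSAD, GSTM2, TXN, PRDX1, TXNRD1, NQO1, SLC1A4 and SLC7A5 to SLC7A8) were chosen after their values were seen. Alternatives covered pseudocounts, filters, scaling, moderation, the replicate block, the GC correction and libraries left out; voom weights and leaving out depleted libraries 2 and 3 were added after seeing the data.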

Additional observations from a re-analysis of the deposited data

How the results depend on the processing

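The 3 genes that rose, SLC7A11, SLC3A2 and CHAC1, kept direction and call in all 19 alternative fits, with log2 fold changes of 3.46 to 4.85, 1.05 to 1.75 and 2.98 to 3.97. GSR also kept its call in all 19, GPX1 in 17, GPX4 in 15 and GSS in 13. The number of the 10 genes called higher was 3 to 4 over the fits that leave out 1 library, and the number called lower 1 to 4, against 3 and 4 with all libraries. With the GC correction 6 genes were called lower. Direction turned in 6 of 189 values of the 10 genes. Without depleted library 1 CTH was at 0.072 and GCLC at 0.11, the highest of fits that leave out 1 library, and the lowest were -0.17 and -0.19 without depleted library 3. GCLM was at -0.057 with the GC correction, with and without the replicate block, at -0.045 when depleted library 1 was also left out, and at -0.057 with depleted library 1 as the only depleted library. The cause was not tested. The log2 ratio of SLC7A11 to SLC3A2 and that of GCLC to GCLM kept their direction in every alternative run for them.

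Deviations of same-numbered libraries from their group means had correlations of 0.083, -0.65 and 0.69 for numbers 1, 2 and 3. After the GC correction these were -0.25, -0.42 and 0.23. Deviations within a group of 3 sum to 0 and depleted library 1 stood apart, so these values cannot decide whether the numbers are pairs. The labels name no pairs, and the main fit used none. With the replicate block 3 of the 10 genes were higher and 4 lower, 3 and 6 with the GC correction added, and 5813 of all genes were called, against 6103. In the block the ratio of SLC7A11 to SLC3A2 differed by 3.11 and that of GCLC to GCLM by -0.54. The exact sign-flip test gave p = 0.25 for each, the smallest value that 3 differences allow. Over all genes, 1728 to 4812 were higher and 1814 to 4913 lower when 1 library was left out, against 2987 and 3116, with the most calls without depleted library 1. In the same fits 1 to 4 carriers, 0 to 2 glutathione-using enzymes (0 also with the replicate block), 2 to 5 NRF2 pathway genes and 3 to 10 ferroptosis control genes were higher. The planned edgeR fit was not run, since the reads were inferred from steps in the deposited values and not given as counts, and voom weights on the inferred reads gave 3 genes higher and 4 lower. SLC7A6 turned to 0.20 with the GC correction and with the block added, and to 0.38 without depleted library 1 as well. SLC7A8 turned to 0.26, 0.26 and 0.29 in the same fits, to 0.085 without depleted library 3 (and stood at -0.13 without depleted library 1), to 0.059 without library 2 with asparagine, and to 0.16 with depleted library 1 alone. CTH rests on 55 to 105 reads a library, the fewest of the 10 genes.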

Other observations

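SLC3A2 also pairs with other light chains of amino acid exchangers, 4 of which are given here. SLC7A5, the large neutral amino acid exchanger LAT1, had 1125, 716 and 725 CPM in depleted libraries and 620, 596 and 540 CPM with asparagine, a log2 fold change of 0.52 that did not pass (limma adjusted p = 0.0593) and of 1.04 after the GC correction (adjusted p = 4.01e-06). SLC7A7 had a change of 0.41 (adjusted p = 0.0419) at 16.3 CPM on average in depleted cells and 12.0 CPM with asparagine, and its call was lost in 6 alternative fits. SLC7A6 and SLC7A8 had changes of -0.090 (adjusted p = 0.509) and -0.036 (adjusted p = 0.872). The differences of these changes from that of SLC7A11, at 4.39, were not tested.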
